A study of Mus musculus with 12 samples.

Results

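The action of tumour necrosis factor alpha (TNFa) in cells given the bone-inducing factor BMP4 was measured in MC3T3-E1 cells, an established mouse line of calvarial pre-osteoblasts. The comparison set the 3 libraries of cells given TNFa and then BMP4 (TNFa+BMP4) against the 3 libraries of cells given BMP4 alone, 6 of the 12 libraries in the series. The other 6 libraries came from untreated cells and from cells given TNFa alone, 3 each, and entered the same fit. All groups were first kept in 2.5% serum for 30 min; TNFa was given at 10 ng/mL for 30 min and BMP4 at 10 ng/mL for 3 h by the written protocol, while the sample tags list 3 h for each factor, which leaves the full TNFa exposure open to either reading. Untreated libraries are tagged 0 h. TNFa alone libraries are titled with "p65" in addition, a term given no explanation. By its title the series concerns Smad4, p65 and the protection of cells by BMP against inflammatory death. Polyadenylated RNA was read as paired ends of 150 bp.

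BMP4 binds paired receptor kinases that phosphorylate Smad1, Smad5 and Smad9; these join Smad4 and enter the nucleus, where they switch on the Id genes, the inhibitory Smads and, in bone precursors, transcription factors of the osteoblast lineage such as Dlx5, Runx2 and Sp7 (osterix). TNFa binds its receptor and activates the kinases that destroy the IkappaB inhibitors, which frees p65 (Rela) and the other NF-kB subunits to enter the nucleus and turn on inflammatory genes, their own inhibitors and survival genes. In bone, TNFa is known as a signal that favours osteoclasts and restrains osteoblast differentiation.

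Each group held 1 library in batch 1 (replicate 1) and 2 in batch 2 (replicates 2 and 3), and batch was a term of the model. TNFa+BMP4 replicate 2 had the most tags, 20.6 M, and the other 11 libraries had 13.7 to 15.5 M. Positions are those of the deposited table on mm10, given as the span of the transcript from first to last exon. No label states that replicates came from separate cultures, so a p-value refers to the spread between the libraries at hand, which may be technical. The deposited levels are log2 values that shrink differences of weakly expressed genes. For some weak genes, not all, the fold in the authors' deposited table is given beside the fitted one. Where it is absent, the fitted change of a weak gene can be smaller than the authors' fold. Of 12 osteoblast lineage markers 9 reached the mean log2 level of 4 needed for testing, and Alpl, Bglap and Ibsp, which mark mature mineralizing osteoblasts, had mean values under 1 in both groups. Of 10 macrophage and leukocyte markers 4 were listed at 0 throughout, and their summed level was 5.90 to 6.07 (log2 of the sum) with BMP4 and 5.94 to 6.09 with TNFa+BMP4. The summed levels of osteoclast markers (9.80 to 10.17 against 9.97 to 10.33) and of endothelial and muscle markers (6.03 to 6.19 against 6.11 to 6.22) overlapped between the groups. Nfatc1 was the strongest osteoclast marker. Of 3 osteoclast markers tested, 1 was called higher (33.3%, against 8.78% of all tested genes), the weak gene Mmp9. Its change was 0.63, and 5.69 in the authors' deposited table, a call lost with robust moderation. The summed level of 8 adipocyte markers, nearly all of it Cebpa, was 7.48 to 8.19 with BMP4 and 7.01 to 7.47 with TNFa+BMP4, so these did not overlap.

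In BMP4-treated cells, TNFa raised NF-kB subunits and inhibitors, chemokines, interferon-response and antigen-presentation genes, and it lowered transcription factors and receptors of bone precursors together with Wnt pathway genes. The direct BMP-Smad targets Id1, Id3, Smad7, Snai1 and Atoh8 stayed far above untreated cells. Of 11765 genes tested, 1905 (16.2%) passed a Benjamini-Hochberg adjusted p of 0.05 in limma, 1033 higher (8.78%) and 872 lower (7.41%) with TNFa. Rises reached further than falls: 85 genes rose and 5 fell by at least 1 on the log2 scale, and 14 genes rose by at least 2 while none fell as far. The median change of called genes was 0.35 for rises and -0.28 for falls, against -0.006 for all genes tested. Of the 1905 genes, 1902 had the same sign in both batches, which calling on 1 effect fitted over both batches favours. Without the deeply sequenced TNFa+BMP4 replicate 2, 892 genes were higher and 692 lower; without TNFa+BMP4 replicate 1, the counts were 781 and 539. In bulk RNA, fewer cells expressing a gene and less RNA per cell cannot be told apart.

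**Figure D1:**
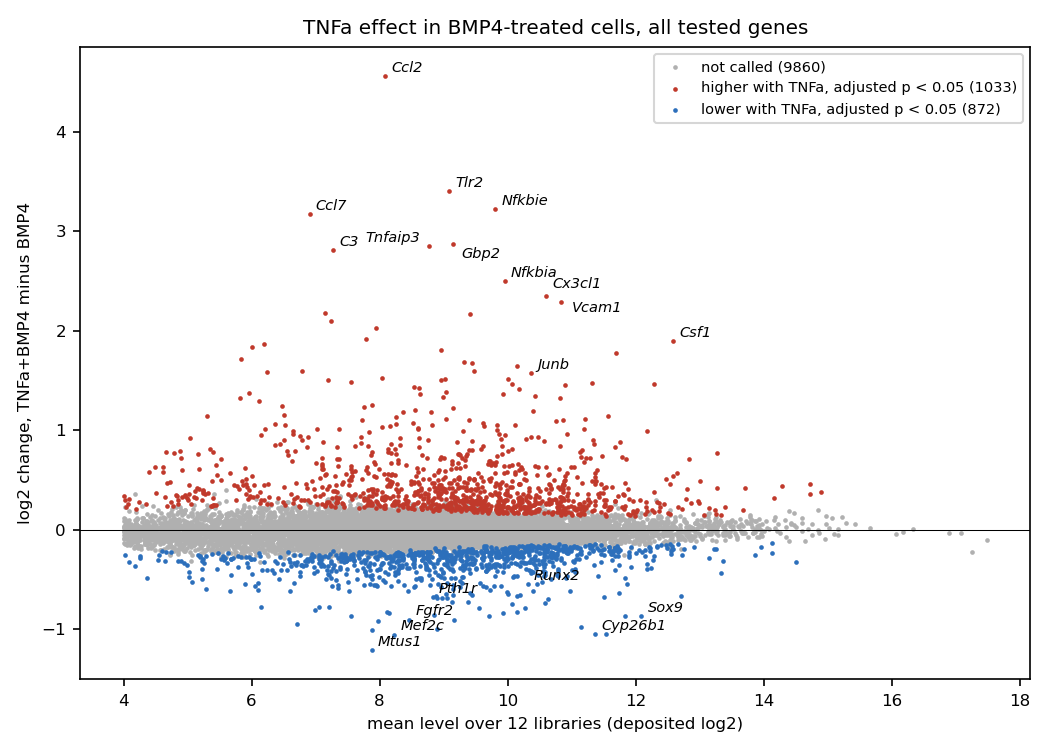
Log2 change with TNFa in BMP4-treated cells (vertical axis) against the mean deposited log2 level over 12 libraries (horizontal axis) for all 11765 tested genes, with called genes in red (1033 higher) and blue (872 lower). The rises extend to 4.56 (Ccl2) and the falls to -1.21 (Mtus1).

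The 12 largest rises were those of Ccl2, Tlr2, Nfkbie, Ccl7, Gbp2, Tnfaip3, C3, Nfkbia, Cx3cl1, Vcam1, Bcl3 and Relb. Of these, 5 belong to the NF-kB list, which held 17 tested subunits and regulators: 16 were higher (94.1%), none was lower, and the list's median change was 0.92. For 14 of the 17 every TNFa+BMP4 library lay above every BMP4 library, which held for 9.17% of all tested genes. Nfkbie (chr17:45555700-45563168, plus strand), which encodes the inhibitor IkappaB epsilon, stood at 8.58, 7.94 and 7.94 (log2 level) in BMP4 replicates 1 to 3 and at 11.79, 11.19 and 11.14 in TNFa+BMP4 replicates 1 to 3. All 3 TNFa+BMP4 libraries lay above all 3 BMP4 libraries, and the change was 3.22 ± 0.05 (SE; adjusted p = 1.9e-20). Tnfaip3 (chr10:19000910-19015410, minus strand) encodes A20, a ubiquitin-editing enzyme that shuts off NF-kB signalling. Its levels were 7.45, 7.08 and 7.17 with BMP4 and 10.81, 9.76 and 9.68 with TNFa+BMP4, again without overlap, a change of 2.85 ± 0.11 (adjusted p = 3.9e-14). For Nfkbia, the gene of IkappaB alpha, 8.44, 9.06 and 9.08 compared with 11.62, 11.18 and 11.26, a change of 2.49 ± 0.13. Among the subunits, Relb rose by 2.17 ± 0.08 and Rela, which encodes p65, by 0.72 ± 0.06, from 10.60, 10.80 and 10.91 to 11.34, 11.58 and 11.57. The atypical IkappaB gene Bcl3 rose by 2.18 ± 0.10.

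The sequence just upstream of Nfkbie and of Tnfaip3 is shown because these NF-kB list genes carried 2 of the largest rises. Their RefSeq start sites also match the deposited table. Both windows hold the 10-letter kappaB consensus, the DNA element bound by NF-kB dimers, which did not enter the choice. Each window is the 250 bases before the start site given by RefSeq on GRCm38.p6 (the mm10 assembly), read 5' to 3' on the gene's strand, at chr17:45555450-45555699 (plus strand) for Nfkbie and chr10:19015411-19015660 (minus strand) for Tnfaip3. Capitals mark the matches to the consensus on either strand.
Nfkbie: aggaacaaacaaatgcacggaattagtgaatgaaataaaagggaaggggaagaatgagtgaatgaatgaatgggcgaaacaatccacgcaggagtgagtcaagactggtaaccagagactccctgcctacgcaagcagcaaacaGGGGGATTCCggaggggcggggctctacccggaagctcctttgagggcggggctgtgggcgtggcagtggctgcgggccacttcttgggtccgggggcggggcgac
Tnfaip3: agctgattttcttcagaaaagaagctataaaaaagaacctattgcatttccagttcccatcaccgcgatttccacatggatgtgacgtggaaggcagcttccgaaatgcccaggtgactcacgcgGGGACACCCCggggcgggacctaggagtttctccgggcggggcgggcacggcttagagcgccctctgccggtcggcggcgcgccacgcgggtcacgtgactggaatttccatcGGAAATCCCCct
The Nfkbie match spans bases -106 to -97 from the start site, and the Tnfaip3 matches span -125 to -116, read on both strands, and -12 to -3 on the opposite strand. Of 9312 tested genes with a RefSeq window, 8.8% held the consensus in these 250 bases; the share was 16% of the 823 called higher, 29.5% of the 61 that rose by at least 1 and 8.4% of the 651 called lower. A looser kappaB form that fixes only the outer letters stood in 63.4% of tested windows, 67.6% of those called higher, 67.2% of those that rose by at least 1 and 66.7% of those called lower. A match describes letters, not a bound site.

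All 8 tested chemokine genes were higher, against 8.78% of all tested genes, with a median change of 1.49. The minimum level is a mean over all groups, so a weak chemokine gene can reach it through the groups given TNFa. With a minimum mean log2 of 6, 5 chemokine genes were called higher. Ccl2 (chr11:82035577-82037452, plus strand), which encodes the monocyte attractant MCP-1, was at 5.92, 5.89 and 5.91 with BMP4 and at 11.51, 9.93 and 9.97 with TNFa+BMP4, a change of 4.56 ± 0.21 (adjusted p = 1.2e-12). The 3 TNFa+BMP4 libraries stood far above the BMP4 libraries, with batch 1 highest, and the authors' deposited table gives a log2 fold of 7.52. Ccl7, a related monocyte attractant, rose by 3.17 ± 0.18, and Cx3cl1 (fractalkine), a membrane-tethered chemokine, by 2.35 ± 0.12. Another 12 listed chemokines lay below the minimum level and were not tested, and none of them was called in the authors' deposited table. That table still gives Cxcl9 a log2 fold of 5.31, Cxcl5 4.50, Ccl11 2.76 and Cxcl1 1.70, and no fold there is negative. The absent calls therefore do not show that these weak genes were unchanged.

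Of 29 interferon-response and antigen-presentation genes, 26 were higher (89.7%, against 8.78% of all tested genes) and none was lower (median change 0.76). The same limit of the minimum level holds here: with a minimum mean log2 of 6, 18 were called higher. Gbp2, an interferon-inducible GTPase, rose by 2.87 ± 0.08, from 7.50, 7.68 and 7.58 to 10.40, 10.46 and 10.52. The immunoproteasome subunit gene Psmb10 rose by 1.80 ± 0.08, and Irf1, a transcription factor of this response, by 1.65 ± 0.10. Iigp1, another interferon-inducible GTPase, was below the minimum level, with a log2 fold of 2.73 in the authors' deposited table. The nitric oxide synthase gene Nos2, also below it, had 7.02 in the authors' deposited table. These were the only list members below the minimum that the authors' deposited table called.

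Innate sensors and adhesion molecules rose as well. Of 15 complement and pattern-recognition genes 8 were higher (53.3%) and none was lower, against 8.78% and 7.41% of all tested genes. Tlr2, a receptor for bacterial lipoproteins, moved from 7.82, 7.50 and 7.23 to 11.64, 10.49 and 10.63. Complement C3 rose by 2.81 ± 0.15 (5.48 in the authors' deposited table). Vcam1 (chr3:116110020-116129688, minus strand), the adhesion molecule on which leukocytes settle, was at 10.05, 9.51 and 9.40 with BMP4 and at 12.33, 11.74 and 11.78 with TNFa+BMP4, without overlap (2.29 ± 0.05; adjusted p = 1.1e-17). Icam1, its counterpart for beta-2 integrins, rose by 1.71 ± 0.10 on the deposited scale and by 5.79 in the authors' deposited table. Over the adhesion and matrix-remodelling list, 9 of 18 were higher (50%) and 5 lower (27.8%), against the same shares of all tested genes. With robust moderation 6 were higher, and with no variance trend 3 were lower. The metalloproteinase inhibitor Timp1 rose by 1.14 ± 0.10.

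Genes that act on osteoclasts and on bone inflammation moved in part. Csf1 (chr3:107741048-107760469, minus strand), the growth factor needed by osteoclast precursors, was at 12.15, 11.49 and 11.47 with BMP4 and at 14.22, 13.27 and 13.30 with TNFa+BMP4, a change of 1.89 ± 0.07. All TNFa+BMP4 libraries were above all BMP4 libraries. The cytokine gene Lif rose by 0.96 ± 0.10 and the prostaglandin synthase gene Ptges by 0.73 ± 0.08. Tnfrsf11b, whose product osteoprotegerin is the decoy receptor for RANKL, had a change of -0.24 ± 0.08 (adjusted p = 0.048) that passed in 1 of the 6 fits that each left out 1 of the 6 libraries compared. Its change was -0.03 in batch 1 and -0.34 in batch 2. Tnfsf11, the RANKL gene, was listed at 0 in every library, so the ratio of the pair has no value here.

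Genes of both survival and death rose: 50% of the survival and 33.3% of the apoptosis genes were higher, against 8.78% of all tested genes. Their shares of falls, 7.14% and 4.76%, did not exceed the 7.41% of all tested genes. Of 14 survival genes 7 were higher and 1 was lower: Birc3 (cIAP2), which blocks caspase-8 activation downstream of the TNF receptor, rose by 1.48 ± 0.12, Traf2 by 0.62 ± 0.07 and Birc2 by 0.60 ± 0.07, while the kinase gene Pim3, chosen after its value was seen as the single fall, fell by 0.57. Of 21 apoptosis genes 7 were higher and 1 was lower. Fas (chr19:34290659-34327770, plus strand), a death receptor, was at 6.18, 6.15 and 5.92 with BMP4 and at 8.39, 8.10 and 8.07 with TNFa+BMP4, a change of 2.10 ± 0.09 without overlap. Bid, which links death receptors to mitochondria, rose by 0.79 ± 0.06 and the pore-forming Bak1 by 0.44 ± 0.06. Of 8 necroptosis and pyroptosis genes 6 were higher: Casp4 (1.30 ± 0.09) and its substrate Gsdmd (1.23 ± 0.09), then Casp12 (0.40 ± 0.09). Mlkl, the executioner of necroptosis, rose by 0.35 ± 0.07. Ripk1, the kinase upstream of it, rose by 0.20 ± 0.06 and passed in 2 of those 6 fits. Casp8, which starts death-receptor apoptosis and restrains necroptosis, was not called (0.13; adjusted p = 0.21).

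**Figure D2:**
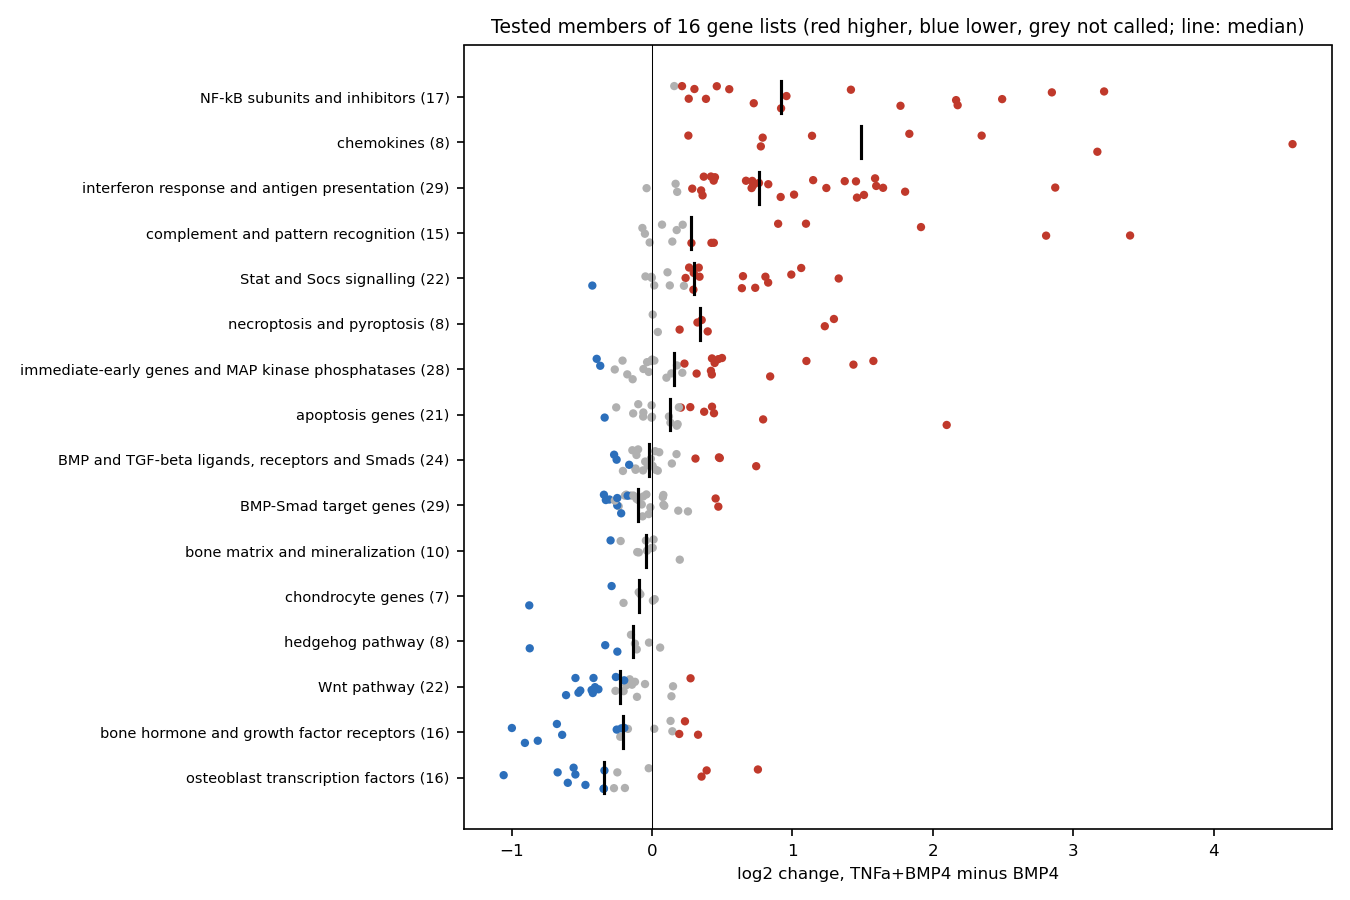
Log2 change with TNFa in BMP4-treated cells for every tested member of 16 gene lists, 1 point per gene, with called genes in red or blue and the list median as a black line; the number tested stands in brackets. The inflammatory lists lie to the right, with medians up to 1.49 (chemokines), and the osteoblast transcription factors lie furthest left, at -0.34.

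The 12 largest falls were those of Mtus1, Mef2c, Cyp26b1, Rflnb, Fam180a, Erbb3, Slc26a2, Apln, Eya1, Hapln1, Fgfr2 and Sox9. Mtus1 (chr8:40990912-41133726, minus strand), which encodes a microtubule-associated protein, was at 8.91, 8.29 and 8.32 with BMP4 and at 7.42, 7.27 and 7.18 with TNFa+BMP4 (-1.21 ± 0.09; adjusted p = 2.9e-09). Cyp26b1, an enzyme that breaks down retinoic acid, was at 12.55, 11.78 and 11.90 and fell to 10.90, 11.06 and 11.12 (-1.05 ± 0.14). Its fall was -1.66 in batch 1 and -0.75 in batch 2. Rflnb (refilin B), a filamin partner of cartilage and bone, fell by 1.05 and the sulfate transporter gene Slc26a2 by 0.98, with batch values of -1.64 and -0.75 and of -1.51 and -0.72. Hapln1, which links hyaluronan to proteoglycans, fell by 0.91 ± 0.07, with levels between 9.46 and 9.83 in the BMP4 libraries and between 8.70 and 8.72 in the TNFa+BMP4 libraries. Dhrs3, another retinoid enzyme, fell by 0.86 ± 0.11. In all, 3 of 11 retinoid genes were lower (27.3%, against 7.41% of all tested genes) and none higher.

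Of 16 osteoblast transcription factors 9 were lower (56.2%) and 3 were higher (18.8%), with a median of -0.34. Among all tested genes 7.41% were lower and 8.78% higher. Mef2c (chr13:83524743-83667079, plus strand) had the largest fall, from 8.78, 8.96 and 8.72 to 7.55, 7.86 and 7.89 (-1.06 ± 0.09; adjusted p = 2.2e-08). Runx2 (chr17:44603989-44736648, minus strand), the master regulator of the osteoblast lineage, was at 11.08, 10.52 and 10.44 with BMP4 and at 10.28, 10.05 and 10.06 with TNFa+BMP4. The 3 TNFa+BMP4 libraries were the lowest, and the change was -0.55 ± 0.07 (adjusted p = 2.8e-06). Sp7 was weaker, at 6.71, 5.64 and 5.45 with BMP4 and at 5.96, 5.05 and 4.98 with TNFa+BMP4: the groups overlapped across batches but not within either batch. Its change was -0.60 ± 0.12 (adjusted p = 0.0012), and -1.31 in the authors' deposited table. Zfp521 fell by 0.56, Sox4 by 0.47, and Dlx5 and Dlx6, neighbouring homeobox genes, by 0.34 each. The authors' deposited table gives -0.42 for Dlx5 and -0.92 for the weaker Dlx6. Osr1 had a change of -0.34 ± 0.10 and passed in 2 of the 6 fits that left out a library, Dlx5 in 4. The 3 rises were those of Bhlhe40 (0.76 ± 0.12), Twist1 (0.39 ± 0.08), known to hold back Runx2, and the stress factor Atf4 (0.35 ± 0.07).

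Of 16 receptors for bone hormones and growth factors, 8 were lower (50%) and 3 higher (18.8%), against 7.41% and 8.78% of all tested genes. Pth1r (chr9:110722085-110742610, minus strand), the parathyroid hormone receptor, was at 9.88, 9.30 and 9.26 with BMP4 and at 8.89, 8.73 and 8.80 with TNFa+BMP4 (-0.68 ± 0.09; adjusted p = 5.5e-06). Fgfr2 was at 9.70, 8.72 and 8.73 and fell to 8.49, 7.97 and 7.97 (-0.91 ± 0.09), and Fgfr3 at 8.08, 7.64 and 7.79 fell to 6.79, 7.23 and 7.05 (-0.81 ± 0.11). Over the list, 8 of 16 receptors had every TNFa+BMP4 library below every BMP4 library, these 3 among them, against 8.2% of all tested genes. Erbb3 fell by 1.00 ± 0.12 and Pdgfrb by 0.64 ± 0.06, whereas Fgfr1 rose by 0.19 ± 0.05, the opposite sign to its relatives Fgfr2 and Fgfr3.

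Of 10 tested bone matrix and mineralization genes 1 was lower (10%, against 7.41% of all tested genes) and none was higher, and the list's median was -0.04. The gene called was Phospho1 (-0.29 ± 0.08, in 2 of the 6 fits that left out a library). Col1a1, the main collagen chain of bone, stood at 17.72, 17.14 and 17.23 with BMP4 and at 17.24, 17.11 and 17.07 with TNFa+BMP4, a change of -0.22 ± 0.09 that did not pass (adjusted p = 0.082). The groups overlapped. Its within-batch values were -0.48 and -0.09. Another 9 matrix genes, Alpl, Bglap and Ibsp among them, were below the minimum level. Of 7 chondrocyte genes, Sox9, the master factor of cartilage, fell from 12.52, 12.83 and 12.84 to 11.30, 12.09 and 12.17 (-0.87 ± 0.09), and Col11a2 had a change of -0.29 ± 0.09.

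**Figure D3:**
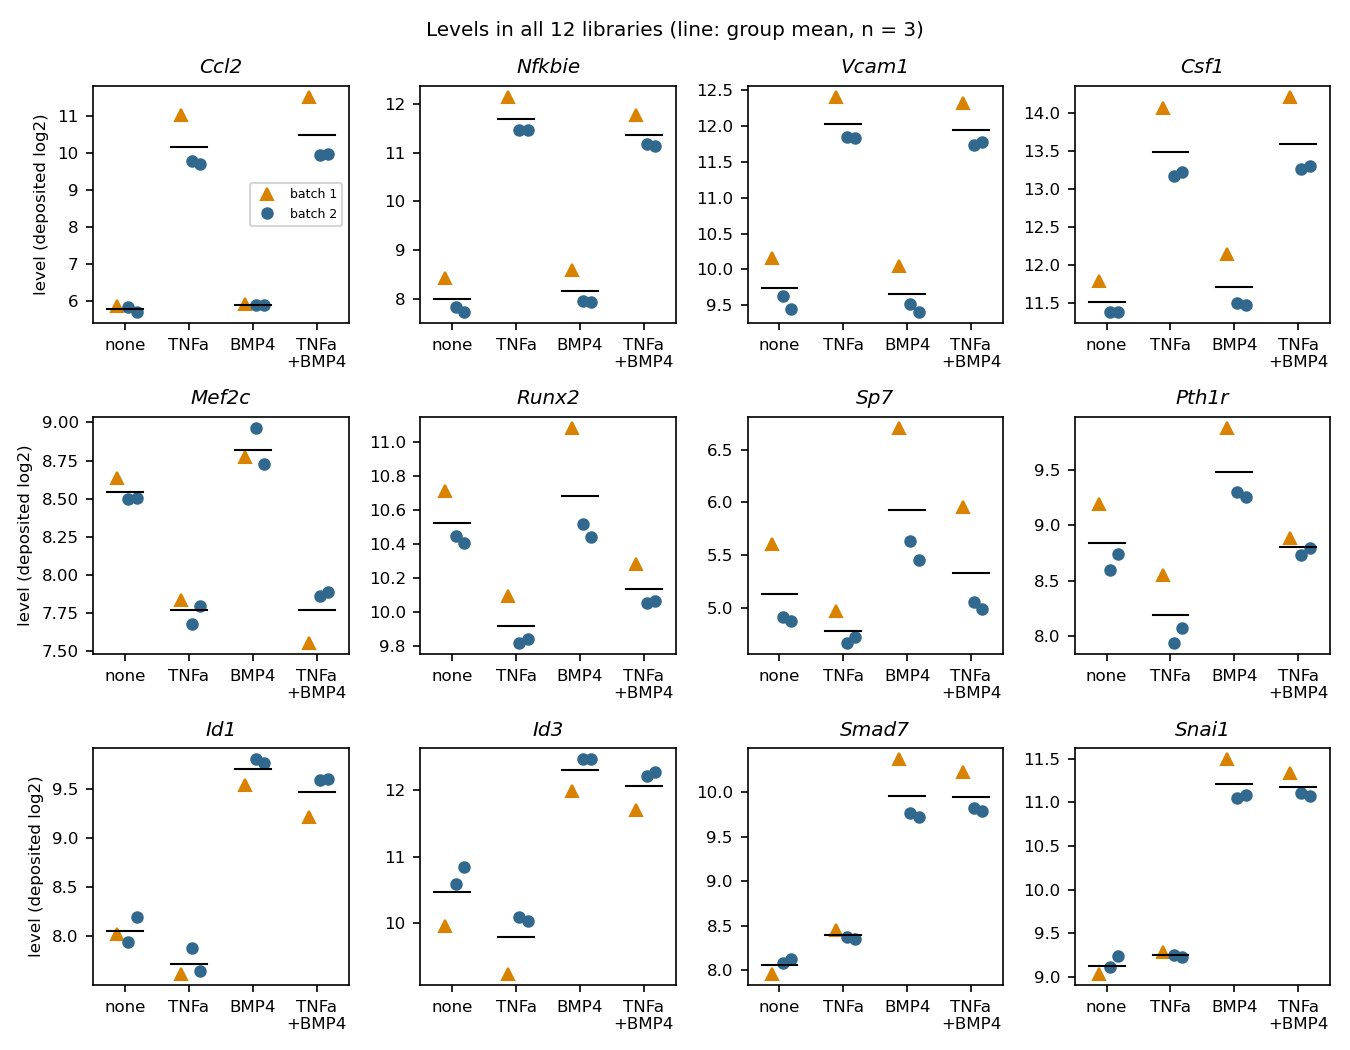
Deposited log2 level of 12 genes in all 12 libraries, by group on the horizontal axis, with batch 1 as triangles, batch 2 as circles and the group mean (n = 3) as a line. The top row (NF-kB, chemokine, adhesion and osteoclast growth factor genes) rose with TNFa, the middle row (bone factors and Pth1r) fell, and the bottom row (BMP-Smad targets) stayed near the BMP4 level.

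The direct targets of BMP-Smad signalling had small changes. Of 29 tested, 7 were lower (24.1%) and 2 were higher (6.9%), against 7.41% and 8.78% of all tested genes. The median change was -0.10, and called changes ran from -0.34 to 0.47. Id3 (chr4:136143822-136145392, plus strand), a dominant-negative helix-loop-helix factor, was at 11.98, 12.47 and 12.47 with BMP4 and at 11.70, 12.21 and 12.27 with TNFa+BMP4. The groups overlapped across batches and not within them, and the change was -0.25 ± 0.07 (adjusted p = 0.017). Id2 was at 10.14, 10.54 and 10.48 and then at 9.84, 10.21 and 10.20 (-0.30 ± 0.06; adjusted p = 0.0006); it was the only one of the 9 called in all 6 fits that left out a library. Id1 had a change of -0.24 ± 0.08 that did not pass (adjusted p = 0.058).

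The inhibitory Smad genes, Smad7 and Smad6, did not pass. Smad7 was at 10.37, 9.77 and 9.72 with BMP4 and at 10.22, 9.82 and 9.79 with TNFa+BMP4, fully overlapping, a change of -0.01 ± 0.10 (adjusted p = 0.96). Smad6 had a change of -0.11 ± 0.10, Snai1, the epithelial repressor, -0.04 ± 0.08, and the helix-loop-helix factor Atoh8 -0.26 ± 0.17. Smad9, a receptor-activated Smad that is itself a target, was at 8.75, 8.61 and 8.55 and then at 8.04, 8.40 and 8.48, a change of -0.33 ± 0.11 (adjusted p = 0.046) made up of -0.71 in batch 1 and -0.14 in batch 2. Chrd (-0.25), Bambi (-0.22) and Tob1 (-0.17) each passed in 1 or 2 of the 6 fits that left out a library. The 2 rises were the TGF-beta-responsive genes Skil (0.47 ± 0.13) and Klf10 (0.45 ± 0.15). The list held 1 rise with quantile normalization or no variance trend, and 0 with robust moderation or no minimum level. Its falls numbered 4 with no variance trend, 3 with no minimum level, and 8 with median centring or robust moderation. With batch 2 alone, 2 targets were lower (Id2 and Id3) and 4 were higher, and the 6 fits gave 1 to 6 lower.

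The windows upstream of Smad9 and Id2 are shown for their falls, the largest among called BMP-Smad targets whose RefSeq start site matches the deposited table. Both genes remained above untreated cells. Both windows hold GGCGCC, a GC-rich element bound by Smad1 and Smad5, which did not enter the choice. They come from RefSeq on GRCm38.p6, are the 250 bases before the start site read 5' to 3', and lie at chr3:54755332-54755581 (plus strand) and chr12:25096093-25096342 (minus strand). Capitals mark GGCGCC, which reads the same on both strands.
Smad9: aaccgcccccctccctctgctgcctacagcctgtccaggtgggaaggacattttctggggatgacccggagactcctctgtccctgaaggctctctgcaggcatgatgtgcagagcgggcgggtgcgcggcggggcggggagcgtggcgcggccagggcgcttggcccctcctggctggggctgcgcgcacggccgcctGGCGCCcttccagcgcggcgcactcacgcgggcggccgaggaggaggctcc
Id2: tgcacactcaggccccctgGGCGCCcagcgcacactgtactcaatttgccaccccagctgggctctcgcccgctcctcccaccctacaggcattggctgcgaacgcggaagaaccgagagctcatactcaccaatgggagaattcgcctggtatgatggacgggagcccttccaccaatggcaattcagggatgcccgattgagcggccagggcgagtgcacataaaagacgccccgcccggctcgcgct
GGCGCC stood in 17.9% of the tested genes' windows, in 16.8% of those called higher, in 23% of those called lower and in 27.1% of the 70 that fell by at least 0.5. In the Smad9 window it spans bases -51 to -46 from the start site and in the Id2 window -231 to -226. The E-box CANNTG, bound by helix-loop-helix factors, stood in 54.7% of tested windows, 54.6% of those called higher and 55% of those called lower. The palindromic Smad element GTCTAGAC was found in 0.2% of tested windows.

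Set beside untreated cells, the direct targets named here stayed raised with TNFa+BMP4. Both changes given below for each gene use the same untreated libraries. The change of TNFa+BMP4 against untreated also holds the effect of TNFa itself. Changes against untreated can hold time in culture as well, since untreated libraries are tagged 0 h and the treated ones 3 h. The change against untreated was 1.66 with BMP4 and 1.42 with TNFa+BMP4 for Id1, 1.84 and 1.59 for Id3, and 1.90 and 1.89 for Smad7. For Snai1 it was 2.08 and 2.04, and for Atoh8 1.99 and 1.72. Sp7 and Pth1r differed from them: Sp7 went from 0.80 to 0.20 and Pth1r from 0.64 to -0.04. For both genes the TNFa effects with and without BMP4 were not called different, and the intervals are given below.

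To describe the BMP4 program beyond the listed targets, genes were taken whose mean BMP4 effect over both backgrounds (BMP4 against untreated, and TNFa+BMP4 against TNFa) passed at an adjusted p of 0.05 (12.5% of tested genes rose and 12% fell) and was at least 0.5. This quantity is balanced against the TNFa effect but comes from the same libraries, so the counts are a description. Of 137 such genes, 43 were lower with TNFa (31.4%), 26 were higher (19%) and 68 were not called, with a median of -0.08. Without TNFa+BMP4 replicate 1, the corresponding fit gave 42 lower and 12 higher. Among all tested genes the shares were 7.41% and 8.78%. The 57 genes that BMP4 lowered by at least 0.5 had similar shares, 29.8% lower and 17.5% higher, with a median of -0.08. Against untreated cells, 121 of the 137 were still called higher with TNFa+BMP4 and 1 was called lower. Of the 43 that TNFa lowered, 27 were still called above untreated, 15 were not called and 1 was below. The set was chosen with the TNFa+BMP4 and untreated libraries among others, so the choice itself favours calls above untreated.

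Rflnb, Slc26a2, Fzd9, Fgfr3, Greb1, Fibin, Lfng and Wscd2 were lowered most. Fgfr3 rose by 1.08 ± 0.11 with BMP4 over untreated and stood 0.27 above untreated with TNFa+BMP4. Lfng, a glycosyltransferase that modifies Notch receptors, was at 10.47, 9.63 and 9.79 with BMP4 and at 9.25, 9.16 and 9.30 with TNFa+BMP4, without overlap (-0.72 ± 0.11). Fzd9, a Wnt receptor, fell by 0.83 ± 0.10. Among those raised most were Junb, Krt16, Ltbp2, Timp1, Maff, D030025P21Rik and Rgs4. Junb (chr8:84976909-84978748, minus strand), an AP-1 subunit, was at 10.27, 10.33 and 10.28 with BMP4 and at 11.94, 11.82 and 11.85 with TNFa+BMP4 (1.58 ± 0.09), against 8.37, 8.64 and 8.95 in untreated cells. The keratin gene Krt16 moved from 10.41, 8.34 and 8.50 to 11.98, 9.85 and 9.96 (1.51 ± 0.13); the groups overlapped across batches because batch 1 was high in both. Ltbp2, a latent TGF-beta binding protein gene, rose by 1.47 ± 0.12.

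**Figure D4:**
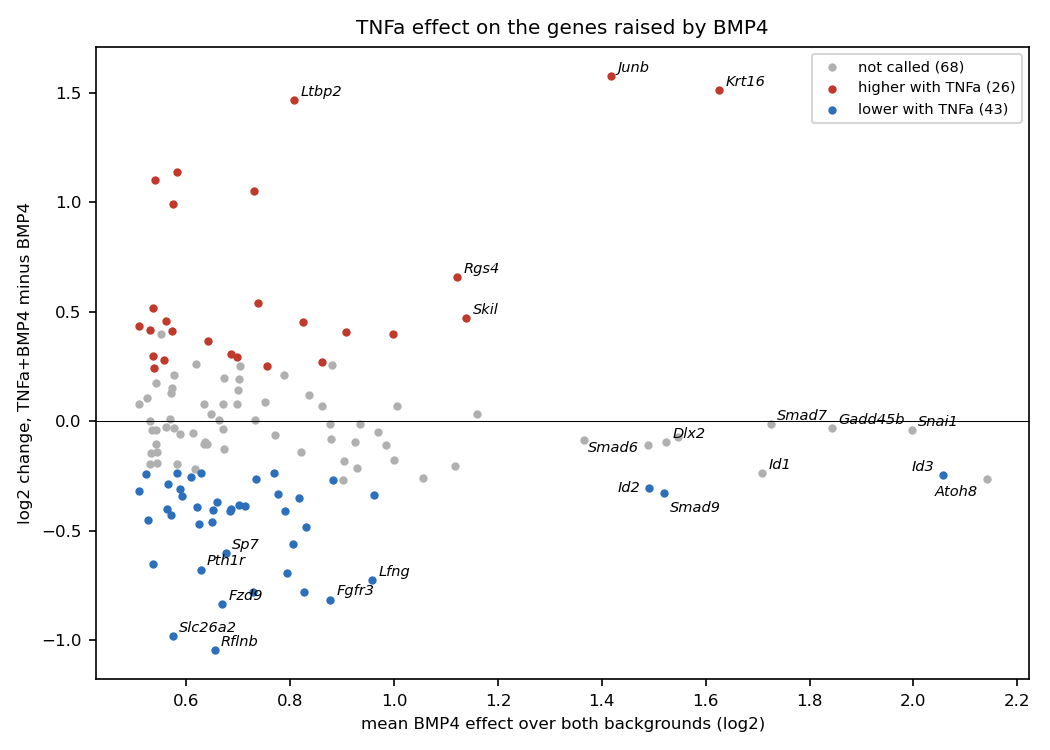
The 137 BMP4-raised genes by their mean BMP4 effect (horizontal axis, log2) and their change with TNFa in BMP4-treated cells (vertical axis, log2), with 26 called higher in red and 43 called lower in blue. Falls of more than 0.5 occur among genes with a BMP4 effect under 1.0, while Junb (1.58) and Krt16 (1.51) combine a large BMP4 effect with the largest rises.

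Of 24 ligands, receptors and Smads of the BMP and TGF-beta pathways, 4 were higher (16.7%) and 3 lower (12.5%), against 8.78% and 7.41% of all tested genes. Smad3, the TGF-beta Smad, was at 9.81, 9.05 and 9.02 with BMP4 and at 10.53, 9.76 and 9.82 with TNFa+BMP4 (0.74 ± 0.05; adjusted p = 1.9e-09), overlapping across batches and not within them. The ubiquitin ligase gene Smurf1, which marks BMP Smads for degradation, and Tgfb1 each rose by 0.48, Smurf1 with an SE of 0.07 and Tgfb1 of 0.11. Tgfbr3 (0.31) completed the rises. The falls were Bmp4 itself (-0.27, with -0.01 in batch 1 and -0.40 in batch 2), Bmpr1a (-0.25) and Smad5 (-0.16, in none of the 6 fits that left out a library); Tgfbr3 and these 3 were named after their values were seen. Smad4, the shared partner, was at 10.91, 10.79 and 10.71 with BMP4 and at 10.65, 10.72 and 10.69 with TNFa+BMP4, a change of -0.12 ± 0.05 that did not pass (adjusted p = 0.16). Among 14 secreted and membrane antagonists of BMP and Wnt, 3 were higher (21.4%) and 4 lower (28.6%). Fst (follistatin) was up by 0.59 ± 0.08, Fstl1 up by 0.44 ± 0.09 and Sostdc1 down by 0.58.

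Of 22 Wnt pathway genes tested, 11 were lower (50%), 10 were not called and 1 was higher (4.55%), with a median of -0.23. Among all tested genes 7.41% were lower and 8.78% higher. The rise was that of Rspo2 (0.28 ± 0.09), a call lost under quantile normalization, median centring, no variance trend, no minimum level, no batch term, the replicate block and batch 2 alone, and in 3 of the 6 fits that left out a library. Lrp6 (chr6:134446478-134566913, minus strand), a Wnt co-receptor, was at 12.59, 11.98 and 11.98 with BMP4 and at 11.87, 11.55 and 11.50 with TNFa+BMP4, without overlap (-0.55 ± 0.07; adjusted p = 2.4e-06). Its relative Lrp5, in which mutations alter bone mass, fell by 0.41. Wnt4 fell by 0.61 ± 0.11, the R-spondin receptor gene Lgr4 by 0.52, the frizzled receptors Fzd8 by 0.51, Fzd2 by 0.43 and Fzd1 by 0.26, the nuclear factors Tcf7l2 and Tcf7l1 by 0.42 each and Tcf7 by 0.38, and Ctnnb1 (beta-catenin) by 0.20. The 6 fits that left out a library gave 10 to 12 lower Wnt genes. In the Notch list 3 of 6 were lower (50%) and none higher: Lfng, Notch1 (-0.62 ± 0.08) and the ligand gene Jag1 (-0.42 ± 0.06). In the hedgehog list 3 of 8 were lower (37.5%) and none higher. These were the co-receptor genes Cdon (-0.87 ± 0.07) and Gas1 (-0.25 ± 0.08, in 2 of the 6 fits) and the receptor gene Ptch1 (-0.33 ± 0.07).

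The TNFa contrast without BMP4, TNFa against untreated, shares no library with the contrast above. Untreated libraries are tagged 0 h and the other groups 3 h. If the tags mean time in culture, that time enters this contrast and the interaction below and cannot be told apart from treatment. TNFa against untreated called 1822 genes (15.5%). Of these, 1252 were called in both contrasts, every one of them in the same direction, which is 65.7% of the calls with BMP4 and 68.7% of those without. Of the 653 genes called only with BMP4, 609 had the same sign without it. The test of the difference between the effects (the interaction, the TNFa effect with BMP4 minus the effect without it) called 2 genes (0.017%), Nfkbie and Pdgfb; 560 genes had an unadjusted p under 0.05. The median SE of this difference was 0.10, so small differences were not resolvable for most genes.

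**Figure D5:**
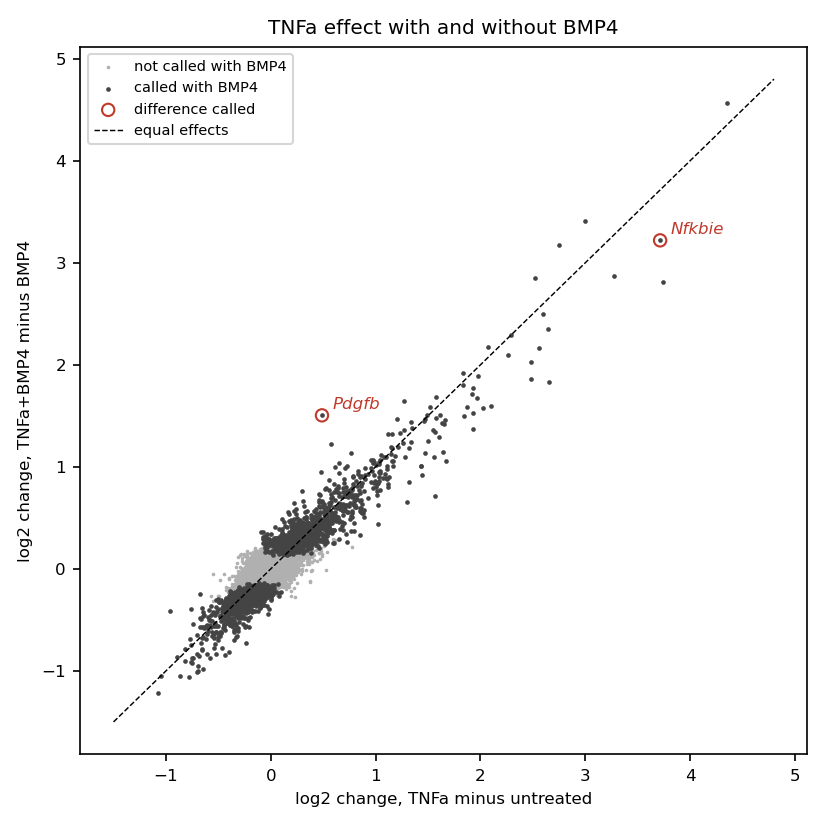
TNFa effect with BMP4 (vertical axis, log2) against the TNFa effect without BMP4 (horizontal axis, log2) for all tested genes, with the line of equal effects dashed. Nfkbie (3.22 with and 3.71 without) and Pdgfb (1.51 and 0.49) are the 2 genes whose difference was called.

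For the bone genes the interval of the difference is the informative quantity. Runx2 fell by 0.60 without BMP4 and by 0.55 with it, a difference of 0.06 with a 95% interval of -0.14 to 0.25. For Pth1r the difference was -0.02 (-0.28 to 0.23), for Sp7 -0.25 (-0.61 to 0.11) and for Mef2c -0.28 (-0.55 to -0.01). The interval for Id3 ran from 0.22 to 0.63 and that for Fgfr3 from -0.73 to -0.09; neither passed after adjustment (adjusted p = 0.30 and 0.93). Id3 fell by 0.68 without BMP4 and by 0.25 with it.

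Changes were larger in batch 1 than in batch 2. Of the 872 genes called lower, 710 fell further in batch 1, with median changes of -0.38 and -0.25; of the 1033 called higher, 666 rose further in batch 1, with medians of 0.42 and 0.32. For the osteoblast transcription factors the medians were -0.52 and -0.22, and for the receptors -0.31 and -0.12. Batch 1 holds 1 library of each group, and the difference between batches was not tested. With batch 2 alone, 1797 genes were called, of which 1459 were also called with both batches, and 7 of the osteoblast transcription factors and 8 of the receptors were called lower.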

How the data were processed

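Polyadenylated RNA of 12 libraries was used, in 4 groups of 3. Per the submitters' processing notes, Trim Galore, HISAT2 and HOMER were used with mm10; versions are not given in the sources used here. The deposited table gives 1 log2 level per library and gene; the transformation is not named, and per the file headers reads were counted over exons and batch was a factor in the authors' tests. The authors' log2 folds and adjusted p-values are deposited beside them and are quoted only as theirs. The batch numbers are those of the labels; the file header swaps them.

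From the log2 levels, limma 3.58.1 (R 4.3.3) fitted the 4 groups and batch over all 12 libraries, using moderated variances that follow the mean level (7 residual degrees of freedom). Of 25124 genes (7423 at 0 throughout), the 11765 with a mean log2 of at least 4 were tested; p-values are two-sided and Benjamini-Hochberg adjusted over them. A gene was called at 0.05. The script was tested on simulated data. Leave-one-out fits drop each of the 6 libraries compared. Scaling, minimum level, variance model, batch and block were varied as alternatives.

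The comparison, the 34 gene lists and the naming rule were chosen with earlier results of these data known. The rule named the 12 largest rises and falls alike in both batches, 3 members per list, all members of the bone, BMP-target, antagonist and Wnt lists, 8 BMP4-raised genes each way, called interactions and a short fixed set. List counts leave out genes below the minimum, which is a mean over all groups, so a gene can pass through the group where it is high. Chromosome positions are those of mm10; promoter windows are RefSeq's, of which 8892 of 9312 start at the site of the file. A few genes that the rule names are not reported here.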

Additional observations from a re-analysis of the deposited data

Results flagged for a closer look

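The test of the difference between the TNFa effect with BMP4 and without it passed for 2 genes. The effect without BMP4 is taken against untreated libraries, tagged 0 h where the other groups are tagged 3 h. Time in culture may therefore enter the difference, which was not tested. For Nfkbie the difference was -0.494 (SE 0.07; 95% interval -0.65 to -0.34; adjusted p = 0.02, limma): the rise was 3.22 with BMP4 and 3.71 without. The 3 TNFa libraries stood at 12.15, 11.47 and 11.48 and the 3 TNFa+BMP4 libraries at 11.79, 11.19 and 11.14. Without BMP4, Nfkbie was at 8.42, 7.83 and 7.72 in untreated cells, close to its level with BMP4 alone. Over the alternatives with a batch term the difference ran from -0.546 to -0.464, and the adjusted p from 0.0047 to 0.11.

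For Pdgfb, which encodes a platelet-derived growth factor chain, the difference was 1.017 (SE 0.17; 95% interval 0.67 to 1.37; adjusted p = 0.038, limma). Untreated libraries stood at 6.66, 7.14 and 7.24, TNFa libraries at 7.14, 7.67 and 7.70, BMP4 libraries at 5.85, 6.61 and 6.65, and TNFa+BMP4 libraries at 7.92, 7.93 and 7.77. BMP4 libraries were the lowest and TNFa+BMP4 libraries the highest, and the rise was 1.51 with BMP4 and 0.49 without. Without replicate 1 of TNFa+BMP4 the difference was 0.786, and with batch 2 alone 0.73. Over the alternatives with a batch term the adjusted p ran from 0.015 to 0.34, and with batch 2 alone it was 0.0076. Its receptor gene Pdgfrb fell by 0.64 ± 0.06 in the BMP4-treated cells.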

How the results depend on the processing

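No called named gene reversed its sign in any alternative. Of 466 named genes tested, 246 were called, 194 of them in all 6 fits that left out a library. The called total of 1905 ran from 1541 (no minimum level) to 2085 (only the 6 libraries) under the alternatives with both batches and a batch term, with 940 higher and 1024 lower under quantile normalization and 915 and 1021 under median centring. Leaving out 1 library gave 1320 to 1594 genes, 781 to 964 higher and 539 to 745 lower, the lowest values without TNFa+BMP4 replicate 1; the cause was not tested. Without a batch term 345 were called (263 higher, 82 lower), and BMP4-raised genes counted 9 lower and 1 higher; the cause was not tested. An added size of at least 0.5 left 400 (300 higher, 100 lower) by construction. The authors' deposited adjusted p called 1439 (827 and 612).

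BMP4-raised genes counted 31 to 50 lower and 12 to 30 higher when 1 library was left out, with 12 higher without TNFa+BMP4 replicate 1. The interaction count of 2 became 1 with quantile normalization, 1 with robust moderation, 0 with no minimum level, 0 without a batch term and 15 with batch 2 alone, and 0 to 7 when 1 library was left out, 7 without BMP4 replicate 1; the cause was not tested. With the replicate block in place of batch, 1812 genes were called (986 higher, 826 lower) and the interaction count was 1. Deviations of same-numbered libraries within batch 2 correlated by 0.02 to 0.16 between groups, so the numbers were not taken as pairs. Fitted folds of weak genes are smaller than those of the authors' deposited table, and the cause was not tested.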

Other observations

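Cytokine receptors and their signalling partners rose with TNFa in the BMP4-treated cells. Of 22 Stat and Socs pathway genes, 14 were higher (63.6%) and 1 was lower (4.55%), with a median of 0.30. Among all tested genes 8.78% were higher and 7.41% lower. The interferon-gamma receptor subunit gene Ifngr2 rose by 1.33 ± 0.06, Il13ra1, a receptor chain for interleukins 4 and 13, by 1.06 ± 0.09, and Osmr, the oncostatin M receptor, by 0.99 ± 0.10. The single fall was that of Lifr (-0.42 ± 0.07), the receptor partner for the cytokine Lif, whose own gene rose by 0.96; Lifr was named after its value was seen.

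Of 18 oxidative-stress and metallothionein genes, 8 were higher (44.4%) and 1 was lower (5.56%), against 8.78% and 7.41% of all tested genes. The metal-binding protein gene Mt2 moved from 9.93, 10.13 and 10.26 to 11.75, 11.19 and 11.35 (1.32 ± 0.11), the antioxidant regulator Nfe2l2 rose by 0.91 ± 0.07 and Hmox1 by 0.80 ± 0.11. In the cell cycle list 4 of 17 were higher (23.5%) and 2 lower (11.8%, near the share of all tested genes). Ccnd1 (cyclin D1) rose by 0.77 ± 0.06, Cdk6 by 0.42 ± 0.05, and the inhibitor gene Cdkn1b (p27) fell by 0.48. Of 15 genes of cholesterol synthesis 1 was called lower (6.67%), Dhcr7 (-0.36 ± 0.09). Of 12 housekeeping controls 1 was called higher (8.33%), B2m (0.42 ± 0.05), which also belongs to antigen presentation. Both are near the shares of all tested genes.

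Among the 57 genes that BMP4 lowered by at least 0.5 over both backgrounds, 17 were lower with TNFa (29.8%), 10 were higher (17.5%) and 30 were not called. All 17 that fell were also called below untreated cells, which the choice of the set favours. Faah, which degrades endocannabinoids, fell by a further 0.69 ± 0.12 with a change of -1.17 against untreated cells. The interferon-inducible genes Parp14 (1.52 ± 0.10) and Samd9l (1.34 ± 0.10) were raised most.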
